A study of Mus musculus with 17 samples.

Results

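The heat shock proteins and chaperones described here were 10 genes picked by symbol from the 26422 genes in the count tables. They were the HSP70 genes Hspa1a, Hspa1b and Hspa8, the HSP110 gene Hsph1, the HSP90 genes Hsp90aa1 and Hsp90ab1, the J protein genes Dnajb1 and Dnaja1, the small heat shock protein gene Hspb1 and the mitochondrial chaperonin gene Hspd1. All 10 had rows in the tables, and 9 passed the filter on low counts in the comparison of whole organoids. Hspb1, with 0 to 15 counts per library, did not pass and was not tested.

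The cells came from small intestinal organoids, epithelial cultures grown in a gel from the crypts of male and female C57BL/6 mice without engineered alleles, between 1 and 6 months of age, and each sample pooled more than 1000 organoids. At day 0 the organoids were in ENR+CV, a medium with EGF, Noggin and R-spondin 1 (ENR) plus CHIR99021 and valproic acid (CV) that keeps them rich in stem cells, and 2 libraries were made. From day 0.25 to day 6 they were in ENR+CD, in which the Notch pathway inhibitor DAPT takes the place of valproic acid and cells are directed towards the Paneth fate, with 7 control libraries and 8 libraries with 160 nM KPT-330, an inhibitor of the nuclear export receptor XPO1. Single cells were freed with the enzyme mix TrypLE and sequenced by Seq-Well S3, which captures transcripts on barcoded beads and counts them by unique molecular identifiers (UMIs). CHIR99021, EGF, Noggin and R-spondin 1 were shared by every group. Days 0.25, 1, 2 and 4 had 1 library per condition, day 3 had 1 control and 2 KPT-330 libraries, and day 6 had 2 of each. The labels do not say whether libraries with different replicate numbers came from separate cultures, so p-values here measure the spread between these libraries.

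Chaperones bind proteins that are not folded and keep them from clumping. HSP70 proteins do so in cycles of ATP use that J proteins start and that HSP110 proteins, which exchange the nucleotide, reset. HSP90 acts later, on kinases, steroid receptors and other clients that are close to their final fold, and the chaperonin of the mitochondrial matrix encloses single proteins in a barrel. Hspa8, Hsp90ab1 and Hspd1 are made in most cells without stress. Hspa1a, Hspa1b and, to a lesser degree, Hsph1, Hsp90aa1, Dnajb1 and Hspb1 are raised by heat shock factor HSF1 when proteins unfold, through heat shock elements, repeats of GAA and TTC in their promoters.

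Hspa1a and Hspa1b are neighbours and near-identical copies, and their promoters are shown because reads of such a pair may be split between the genes. In the GENCODE annotation of GRCm38 both lie on the minus strand of chromosome 17, Hspa1a at chr17:34969190-34972156 and Hspa1b at chr17:34956436-34959238, with 9951 bases between them. The RefSeq windows of GRCm38.p6 upstream of the start, chr17:34972157-34972406 for Hspa1a and chr17:34959239-34959488 for Hspa1b, were identical at 247 of 250 bases (98.8%). They are written 5′ to 3′ on the minus strand, with a match to the motif GAANNTTC in capitals, which ran from 104 to 97 bases before the start in both.
Hspa1a: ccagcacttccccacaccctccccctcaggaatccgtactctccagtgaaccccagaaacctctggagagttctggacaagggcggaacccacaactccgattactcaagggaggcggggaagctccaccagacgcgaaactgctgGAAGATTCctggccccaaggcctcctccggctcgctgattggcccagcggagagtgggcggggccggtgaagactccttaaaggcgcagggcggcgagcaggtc
Hspa1b: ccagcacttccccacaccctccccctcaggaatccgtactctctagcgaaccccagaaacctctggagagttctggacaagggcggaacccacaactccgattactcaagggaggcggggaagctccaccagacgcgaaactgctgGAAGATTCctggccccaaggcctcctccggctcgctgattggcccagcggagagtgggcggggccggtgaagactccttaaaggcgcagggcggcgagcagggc

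Short stretches around the motif are shown for 3 more genes, standing for the HSP110, chaperonin and J protein families. Capitals again mark bases that match the motif, and each stretch is given on the strand of its gene. The stretches lie at chr5:149636351-149636380 (minus strand) for Hsph1, at chr1:55088053-55088082 (minus strand) for Hspd1 and at chr4:40722333-40722362 (plus strand) for Dnaja1. They lie upstream of RefSeq starts that are inside the spans GENCODE gives these genes. The Hspd1 and Dnaja1 stretches are thus wholly, and the Hsph1 stretch partly, within the GENCODE gene. Their windows overlap annotated exons, unlike those of Hspa1a and Hspa1b.
Hsph1: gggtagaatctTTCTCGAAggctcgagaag
Hspd1: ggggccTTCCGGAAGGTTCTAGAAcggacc
Dnaja1: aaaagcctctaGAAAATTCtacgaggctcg

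The motif searched was GAANNTTC or TTCNNGAA on both strands, and the longer form has a further NNGAA after the first or a further NNTTC after the second, so every match of it also holds the short one. RefSeq windows were at hand for 7 of the 10 genes. The short motif was found within 250 bases upstream of a RefSeq start for 6 of them, Dnaja1, Hspa1a, Hspa1b, Hspb1, Hspd1 and Hsph1, but not for Dnajb1. The long motif was found for Hspd1. Of all 27025 genes with windows of that length, 14.5% held the short motif in at least 1 window and 0.514% the long one. By window, 7 of the 12 windows of these genes held the short motif. Of all 32851 windows, 12.8% held the short motif and 0.466% the long one. Hspd1 (chr1:55077835-55088243) overlaps the start of Hspe1, which encodes its partner in the chaperonin, head to head on the opposite strand. On the same build Hspa8 lies at chr9:40800984-40810087 (plus strand), Hsph1 at chr5:149614287-149636376 (minus strand), Hsp90aa1 at chr12:110690605-110702728 (minus strand), Hsp90ab1 at chr17:45567775-45573271 (minus strand), Dnajb1 at chr8:83608193-83612653 (plus strand), Dnaja1 at chr4:40722150-40737149 (plus strand) and Hspb1 at chr5:135887919-135889563 (plus strand). The capture of transcripts at their 3′ ends means that the counts are taken near the end of each gene, away from the promoters shown.

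Over the cells kept by the authors, the 17 libraries held 3458887 to 12433109 UMIs in 531 to 1547 cells. Levels are given as UMIs per 10000 UMIs of all genes, summed over the kept cells of a library, and each gene is compared with itself only. Xpo1, the target of KPT-330, served as a check of the labels: it was 1.504 higher on the log2 scale in KPT-330 libraries (SE 0.09, adjusted p 7.76e-07, edgeR), a 2.84-fold difference. Paneth-like cells made up 0.565% and 0.819% of the day 0 libraries and 38.8% and 44.9% of the day 6 control libraries, so levels over all cells compare organoids of different make-up.

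Hspd1, Hsph1, Hspa8, Hsp90ab1 and Hspa1b were lower at day 6 in ENR+CD control than at day 0 in ENR+CV, and Hspd1 fell most. Over all cells, day 6 control was tested against day 0 in edgeR with Benjamini-Hochberg adjustment over 13455 genes, and 5 of the 9 genes tested were lower and 0 higher at an adjusted p under 0.05. Of all genes tested, 20.2% were lower and 19.7% higher. In sums over all cells, fewer cells of a type and less RNA per cell cannot be told apart. The medium also changes from ENR+CV to ENR+CD in this contrast, so time, medium and differentiation cannot be told apart either.

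Hspd1, the barrel subunit of the mitochondrial chaperonin, stood at 2.39 and 2.90 UMIs per 10000 at day 0 and at 0.855 and 0.751 at day 6 in control. The groups did not overlap, and the fall came early: control libraries read 3.26 at day 0.25, 1.89 at day 1, 0.962 at day 2, 0.819 at day 3 and 0.861 at day 4. From day 2 on, every untreated library was below every untreated library of days 0 to 1. Untreated here means without KPT-330, so it takes in day 0 in ENR+CV. Control libraries of days 0.25 and 1 had replicate number 1 and those of days 2, 3 and 4 number 2. At that step day and replicate number cannot be told apart, here or for Hspa8 and Hsp90ab1 below. Days 0 and 6 had both numbers. For Hspd1 the log2 fold change from day 0 to day 6 was -1.59 (SE 0.17, adjusted p 6.38e-05), 3.02-fold lower.

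Hsph1, the HSP110 nucleotide exchange factor of HSP70, stood at 2.05 and 2.16 at day 0 and at 0.985 and 1.12 at day 6 in control. Its course was uneven, with 1.32 at day 0.25, 1.81 at day 1, 1.28 at day 2, 0.986 at day 3 and 1.53 at day 4. The day 0 and day 6 libraries did not overlap, and the log2 fold change was -0.89 (SE 0.22, adjusted p 0.00761).

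Hspa8, the constitutive HSP70, stood at 6.84 and 7.77 at day 0 and at 4.10 and 3.81 at day 6 in control. It was highest in the control libraries of day 0.25 (8.61) and day 1 (8.77), and lower from day 2 (5.27) through day 3 (3.75) and day 4 (4.38). As for Hspd1, the untreated libraries of days 2 to 6 were all below those of days 0 to 1. The log2 fold change from day 0 to day 6 was -0.76 (SE 0.23, adjusted p 0.0219).

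Hsp90ab1, the constitutive HSP90, stood at 32.0 and 39.7 at day 0 and at 20.01 and 21.8 at day 6 in control. Its course was like that of Hspa8, with 42.4 at day 0.25, 38.6 at day 1, 26.1 at day 2, 24.2 at day 3 and 25.5 at day 4, again with no overlap between the untreated libraries of days 0 to 1 and of days 2 to 6. This was so for 3 of the 9 tested genes (Hspa8, Hsp90ab1 and Hspd1), and for 19.1% of all genes (15.3% were higher without overlap). The log2 fold change from day 0 to day 6 was -0.66 (SE 0.23, adjusted p 0.0426).

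Hspa1b, the second of the inducible HSP70 genes, fell from 0.0379 and 0.0443 at day 0 (17 and 32 UMIs) to 0.0153 and 0.0180 at day 6 in control (19 and 8 UMIs), with a log2 fold change of -1.20 (SE 0.43, adjusted p 0.0448). These are few molecules, and the call was lost in DESeq2 (adjusted p 0.286) and with no filter on low counts (adjusted p 0.0836). Of the libraries left out in turn it was kept only without day 6 KPT-330 replicate 2, with adjusted p-values of 0.0481 to 0.231. Hspa1a, its copy, read 0.0179 and 0.0333 at day 0 and 0.0169 and 0.0225 at day 6 in control, and its log2 fold change of -0.33 (SE 0.61, adjusted p 0.693) became 0.11 without day 0 replicate 2.

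The stress-inducible HSP90 gene Hsp90aa1 read 0.752 and 0.880 at day 0 and 0.658 and 0.539 at day 6 in control. Its groups did not overlap, but the difference of -0.32 (SE 0.20, adjusted p 0.221) did not pass the test. Of the J proteins, Dnajb1, the stress-inducible partner of HSP70, read 0.449 and 0.529 against 0.556 and 0.537 (log2 fold change 0.28, adjusted p 0.162), and Dnaja1 read 0.437 and 0.406 against 0.473 and 0.428 (log2 fold change 0.22, adjusted p 0.348). Without overlap at day 6, 6 of the 9 tested genes were lower and Dnajb1 was higher, and of all genes 39.7% were lower and 30.5% higher.

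A line over days 0.25 to 6 in the 7 control libraries shares its day 6 libraries with that contrast and called 3 of the 9 genes lower and 0 higher. Hspd1 fell by 0.29 per day on the log2 scale (SE 0.07, adjusted p 0.0345), Hspa8 by 0.19 (SE 0.05, adjusted p 0.0430) and Hsp90ab1 by 0.16 (SE 0.05, adjusted p 0.0488). Of 12442 genes tested, 9.3% fell and 7.88% rose. Both comparisons rested on few libraries. In the trend, control libraries of days 0.25 and 1 had replicate number 1 and those of days 2 to 4 number 2, so day and number partly coincide. Without day 6 control replicate 1, Hspd1 was the only gene of the 9 called between day 6 and day 0, without either day 0 library or without day 6 control replicate 2 the calls were Hspd1 and Hsph1, and without either day 3 KPT-330 library, which here gives the spread, 3 genes were called. The trend had 0 calls among the 9 genes without day 0.25, day 1, day 4 or day 6 control replicate 2, and 1 without day 6 control replicate 1.

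**Figure D1:**
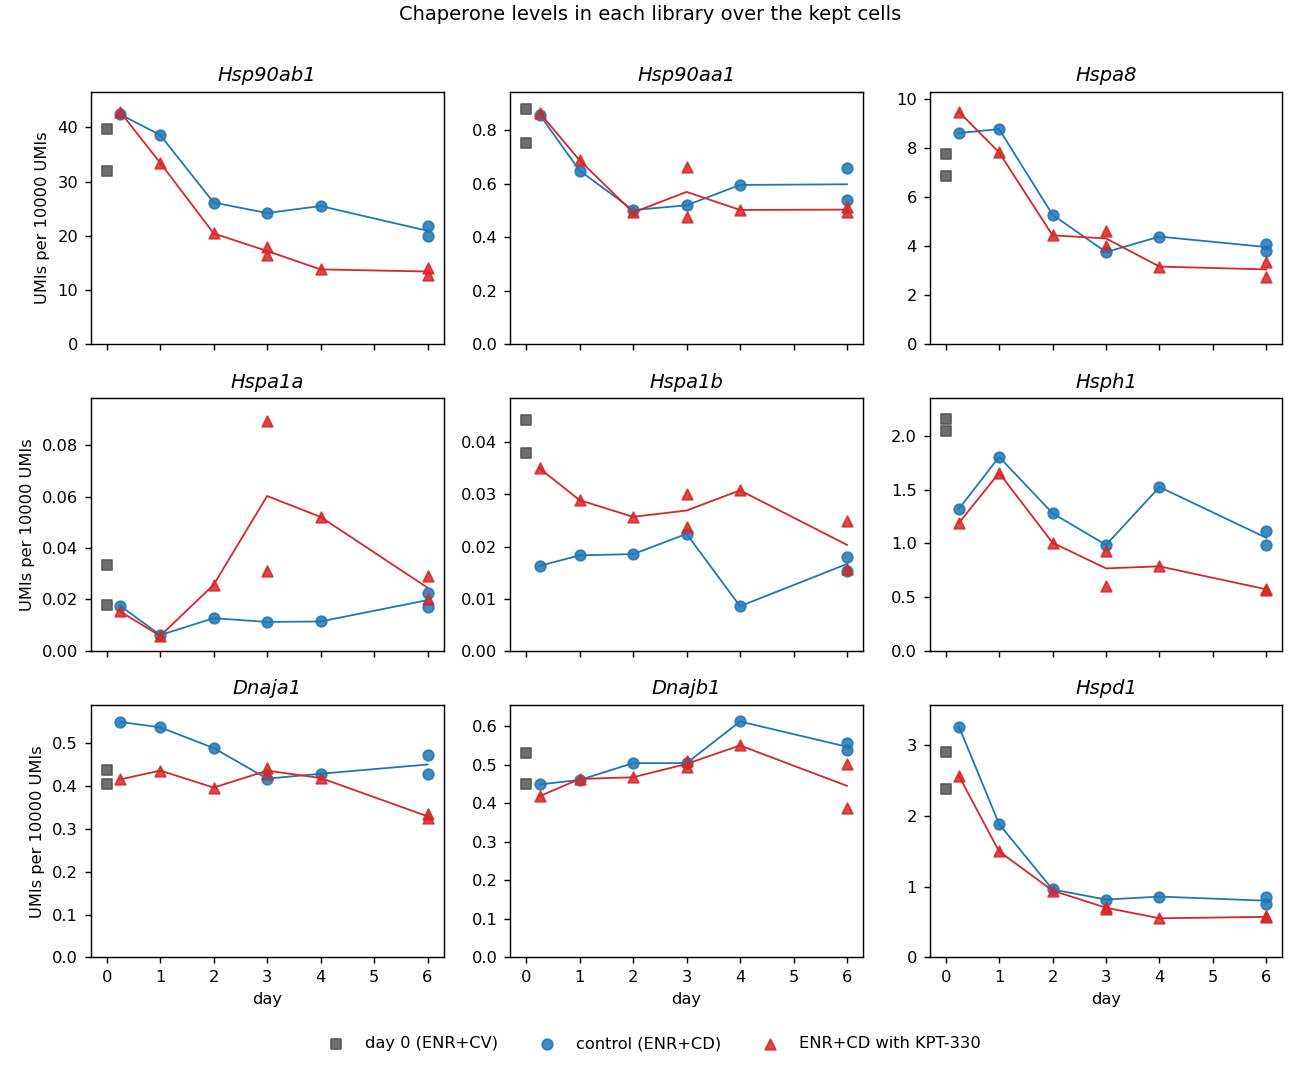
Levels of 9 chaperone genes (UMIs per 10000 UMIs over the kept cells) against day, 1 point per library, with lines through the mean of each day. Hspd1 falls from 3.26 at day 0.25 to 0.962 at day 2 in control, and Hspa1a reaches its highest value, 0.0894, in 1 KPT-330 library of day 3.

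Other chaperone families were counted for the same contrast. Of the cytosolic chaperonin TRiC and prefoldin, which fold actin and tubulin, 10 of 13 tested genes were lower at day 6 and 0 higher, led by Tcp1 (log2 fold change -1.08), Cct4 (-0.97) and Cct8 (-0.95), with a median of -0.81 over the list and 0.01 over all genes. Of the mitochondrial chaperones and proteases, 9 of 12 were lower, led by Hspe1 (-1.52), the protease Lonp1 (-1.41) and the mitochondrial HSP90 Trap1 (-1.31), and 1, the nucleotide exchange factor Grpel2, was higher (1.29), with a list median of -0.96.

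Of the cochaperones, which steer HSP70 and HSP90, 11 of 22 were lower, led by Bag2 (-1.41), Sugt1 (-1.11) and Fkbp5 (-1.11), and 1, Unc45a, was higher (0.69). The other HSP70, HSP110 and J protein genes were mixed, with 4 of 17 lower and 2 higher, Dnaja4 (1.93) and Dnajc5 (0.67). Of the heat shock factors and their regulators, 1 of 4 was lower, Hspbap1 (-1.67). Of the other small heat shock proteins, 2 were tested and 1, Hspb8, was higher (3.96). The chaperones of the endoplasmic reticulum went the other way, with 6 of 13 higher and 0 lower, led by Dnajc3 (1.38), Dnajb9 (1.35) and Dnajc10 (0.80). Immediate early genes, which enzymatic dissociation is known to raise, were higher in 11 of 21 and lower in 0, and their part in the changes of the chaperones was not tested.

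KPT-330 was compared with control over all cells of the 15 ENR+CD libraries, with day as a term. Both inducible HSP70 genes were higher with KPT-330 and none of the other 7 tested genes was called. Of 12812 genes tested, 14.4% were higher and 14.2% lower, so 2 of 9 higher and 0 of 9 lower are to be read beside those shares.

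With KPT-330, Hspa1a read 0.0153 beside a control value of 0.0175 at day 0.25, 0.00578 against 0.00611 at day 1, 0.0257 against 0.0127 at day 2, 0.0311 and 0.0894 against 0.0112 at day 3, 0.0521 against 0.0114 at day 4, and 0.0291 and 0.0200 against 0.0169 and 0.0225 at day 6. Its KPT-330 libraries were thus not above control at days 0.25 and 1, were above it at days 2 to 4 and overlapped it at day 6. The counts were small, with 2 to 60 UMIs per KPT-330 library and 3 to 21 per control library. The library with 60, day 3 KPT-330 replicate 2, had them in 41 cells with at most 5 in a cell. The log2 fold change was 1.37 (SE 0.39, adjusted p 0.0193), 2.58-fold higher. Without day 3 it was 1.02 (adjusted p 0.0686) and without day 4 it was 1.15 (adjusted p 0.0678).

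Hspa1b with KPT-330 read 0.0350 beside a control value of 0.0163 at day 0.25, 0.0289 against 0.0183 at day 1, 0.0257 against 0.0185 at day 2, 0.030 and 0.0238 against 0.0224 at day 3, 0.0308 against 0.00855 at day 4, and 0.0157 and 0.0250 against 0.0153 and 0.0180 at day 6. The mean of the KPT-330 libraries was above that of the control libraries at 6 of 6 days. The log2 fold change was 0.90 (SE 0.23, adjusted p 0.0110), 1.87-fold higher, and the call held with each day or library left out in turn. Since reads of the pair may be split, the summed count of both was also tested, and it was 1.15 higher on the log2 scale (SE 0.24, adjusted p 0.00435). A two-sided exact sign-flip test over the 6 days, whose smallest possible p is 0.03125, gave 0.03125 for Hspa1b and for the sum, both higher at 6 of 6 days, and 0.125 for Hspa1a, higher at 4 of 6.

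The other genes had no call with the factors that edgeR's TMM method sets. Hsph1 differed by -0.24 (SE 0.11, adjusted p 0.119), Hsp90ab1 by -0.19 (SE 0.10, adjusted p 0.159), Hspd1 by -0.09 (SE 0.08, adjusted p 0.472), Hsp90aa1 by 0.20 (SE 0.09, adjusted p 0.118), Dnajb1 by 0.14 (SE 0.07, adjusted p 0.150), Hspa8 by 0.10 (SE 0.12, adjusted p 0.525) and Dnaja1 by 0.02 (SE 0.10, adjusted p 0.925). Their approximate 95% intervals all lay within -0.46 to 0.38.

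For the abundant chaperones the scale mattered. With library totals in place of TMM factors, a setting added after the data were seen, the median of all genes moved to -0.27 with KPT-330, and 38.2% of genes were called lower and 3.67% higher. On that scale Hsph1 (-0.51, adjusted p 0.00545), Hspd1 (-0.35, adjusted p 0.00559), Hsp90ab1 (-0.46, adjusted p 0.00653) and Dnaja1 (-0.25, adjusted p 0.0371) were lower, and Hspa1a (1.07, adjusted p 0.0337) and Hspa1b (0.65, adjusted p 0.0482) stayed higher. Relative to the median of all genes, Hspd1 and Dnaja1 were within 0.1 of it. Hspa8, Hsp90aa1, Dnajb1 and Dnaja1, above 0 with TMM factors, were below 0 with library totals.

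The levels per 10000 show the same scale. Hsp90ab1 read 42.9 with KPT-330 at day 0.25, 33.4 at day 1, 20.4 at day 2, 17.8 and 16.5 at day 3, 13.8 at day 4, and 12.8 and 14.0 at day 6. It was 42.4 in control at day 0.25, so the values were alike at the first day with KPT-330, and at each later day KPT-330 was below control. Paneth-like cells made up 62.95% and 53.45% of the day 6 KPT-330 libraries and 44.9% and 38.8% of the day 6 control libraries. These levels thus also compare organoids of different make-up. Hsph1 read 1.19, 1.66 and 1.01 with KPT-330 at days 0.25, 1 and 2, then 0.931 and 0.603 at day 3, 0.786 at day 4, and 0.580 and 0.565 at day 6. Hspd1 read 2.56, 1.5 and 0.946 at days 0.25, 1 and 2, then 0.687 and 0.720 at day 3, 0.554 at day 4, and 0.567 and 0.582 at day 6.

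Both Hsph1 and Hspd1 were below control at 6 of 6 days (exact sign-flip p 0.03125, two-sided, the smallest possible), and Hsp90ab1 at 5 of 6 (p 0.0625). These p-values are not adjusted over genes and hold the shift of all genes on the scale per 10000. The share of all genes below control at 6 of 6 days was not counted. With TMM factors in edgeR, Hspd1 differed by -0.09 (adjusted p 0.472) and Hsph1 by -0.24 (adjusted p 0.119). At days 3 to 6, Hsph1, Hsp90ab1 and Hspd1 were lower in each of the 5 KPT-330 libraries than in each of the 4 control libraries. That is 3 of 9 genes, beside 28.3% of all genes, and 0.929% of genes were higher without overlap.

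Hspa8 read 9.47, 7.82, 4.43, 4.63 and 3.99, 3.16, and 3.34 and 2.75 with KPT-330 in the order of the days, and was above control at days 0.25 and 3 and below it at the other 4. Hsp90aa1 read 0.477 to 0.867 over the KPT-330 libraries (median 0.507) and 0.502 to 0.859 over control (median 0.596), and Dnajb1 read 0.387 to 0.550 (median 0.480) against 0.448 to 0.612 (median 0.504). Dnaja1 had means of 0.400 with KPT-330 and 0.475 in control. For all of these the ranges overlapped. Hspb1 had 0 to 4 UMIs per KPT-330 library and 0 to 15 per control library, the 15 in day 6 control replicate 1, too few for a comparison at this depth.

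**Figure D2:**
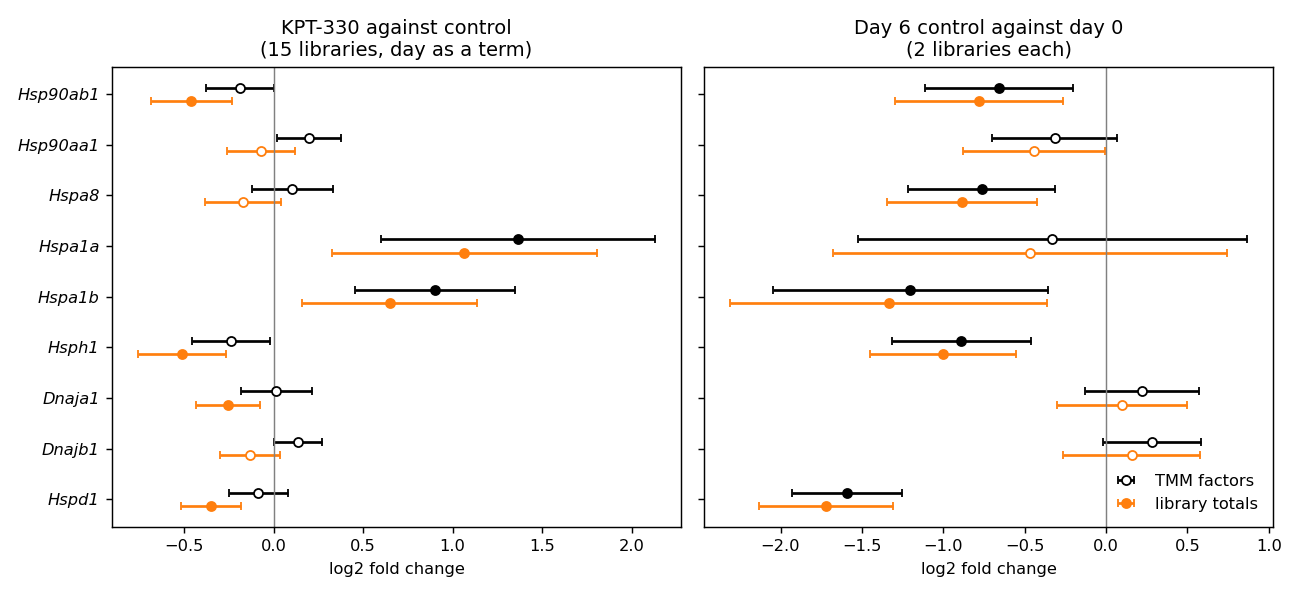
Log2 fold changes of 9 chaperone genes with approximate 95% intervals, for KPT-330 against control (left) and day 6 control against day 0 (right), with TMM factors in black and library totals in orange. Filled points have an adjusted p under 0.05, and Hspa1a and Hspa1b are above 0 on the left with both scalings.

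Whether the effect of KPT-330 differed between days 3 to 6 and days 0.25 to 2 was tested by the interaction in edgeR. None of the 9 genes and 0 (0%) of 12812 genes passed, with 1333 genes at an unadjusted p under 0.05, and DESeq2 called 56 genes, none of the 9 among them. The estimate was 1.26 for Hspa1a (SE 0.77, adjusted p 0.581) and 0.43 for Dnaja1 (SE 0.18, adjusted p 0.423), so a later effect on Hspa1a was not resolved from an even one.

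Of the other chaperone lists, the endoplasmic reticulum chaperones had most calls with KPT-330, 9 of 13 higher and 0 lower, led by Dnajb9 (0.69), Dnajc3 (0.59) and the HSP70 of the endoplasmic reticulum Hspa5 (0.44). The cochaperones had 2 of 22 higher, Bag3 (0.42), a partner of HSP70 that is itself a target of HSF1, and Bag1 (0.30), and 2 lower, Bag2 (-0.52) and Ppid (-0.34). Of the other HSP70, HSP110 and J proteins, 2 of 17 were higher, Hspa13 (0.58) and Dnajc5 (0.24), and 3 lower, Dnaja4 (-0.78), Dnajb5 (-0.61) and Dnajc9 (-0.58).

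TRiC and prefoldin had 0 of 13 higher and 3 lower, Cct6a (-0.25), Cct4 (-0.22) and Cct3 (-0.22). The mitochondrial list had 1 of 12 lower, Hspe1 (-0.25), the heat shock factors had 1 of 4 lower, Hsf2 (-0.35), and neither of the 2 small heat shock proteins tested was called. The list medians were 0.36 for the endoplasmic reticulum and between -0.06 and 0.04 for the others, beside -0.0023 for all genes. With library totals 2 endoplasmic reticulum genes, 0 cochaperones and 1 of the HSP70, HSP110 and J proteins were higher, while 13 cochaperones, 9 of the HSP70, HSP110 and J proteins, 8 of TRiC and prefoldin and 5 of the mitochondrial list were lower.

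Immediate early genes moved with KPT-330 as well: 12 of 21 were higher and 0 lower with TMM factors, led by Atf3 (1.09), Dusp1 (0.96) and Klf6 (0.79), and with library totals 6 were higher and 1 lower. Their summed level was 31.8 to 76.97 per 10000 in the control libraries and 38.2 to 99.8 in the KPT-330 libraries, and its part in the result for Hspa1a and Hspa1b was not tested.

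The inducible HSP70 transcripts were unevenly spread over the cell types. Cells were clustered without the chaperone and immediate early genes and named from marker lists that the study derived on these samples, as stem I-like, stem II-like, stem III-like (cycling), early enterocyte-like, enterocyte-like (absorptive), early Paneth-like, Paneth-like and enteroendocrine-like. The stem II-like cluster had the replication genes Mcm3 and Mcm5 among its leading genes, with marker scores of 1.453 for stem II and 1.335 for stem III. Enteroendocrine-like cells joined a cluster led by Neurog3 with another led by Gcg. A cluster led by Clca3, Fcgbp and Agr2 held markers of both early secretory and goblet cells and was left without a name. With KPT-330, 98 of the 170 Hspa1a UMIs (57.6%) were in enterocyte-like cells, which were 13.7% of cells and held 19.7% of UMIs. In control, 8 of 78 (10.3%) were, where such cells were 4.21% of cells and held 8.11% of UMIs. For Hspa1b the shares were 40 of 129 (31.0%) and 9 of 92 (9.78%). Of the cells with 3 or more Hspa1a UMIs in the KPT-330 libraries, 9 of 9 were enterocyte-like, and control had 1 such cell, of another type. For the summed count of both genes it was 11 of 13 cells with KPT-330 and 0 of 2 in control.

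Within enterocyte-like cells Hspa1a read 0.0541 with KPT-330 at day 2, 0.0611 and 0.170 at day 3, 0.148 at day 4 and 0.113 at day 6 (10 to 42 UMIs each). In control it read 0.0116 at day 2, 0.0391 at day 3, 0 at day 4, where 3 UMIs would have been 0.0719, and 0.00820 and 0.0801 at day 6 (0 to 3 UMIs each). The means were 0.109 ± 0.051 (SD, n = 5) and 0.0278 ± 0.0327 (SD, n = 5), and the groups overlapped through day 6 control replicate 2, where 2 UMIs gave the 0.0801. The second KPT-330 library of day 6 had 19 enterocyte-like cells with 4 UMIs, under the minimum of 20 cells, and was left out.

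In all other cells Hspa1a was 0.0183 ± 0.0118 (SD, n = 8) with KPT-330 and 0.0134 ± 0.0050 (SD, n = 7) in control, with overlapping ranges. Hspa1b was 0.0429 ± 0.0129 (SD, n = 5) in enterocyte-like cells with KPT-330 and 0.0119 ± 0.0201 (SD, n = 5) in control, where 3 of the 5 libraries had 0 UMIs. The groups overlapped, and at day 2 control read 0.0464 (8 UMIs) and KPT-330 0.0271 (7 UMIs). In control at day 4 and in day 6 control replicate 2, 3 UMIs would have been 0.0719 and 0.120. Both are above the highest KPT-330 value, 0.0569, so these zeros do not separate the groups. In all other cells Hspa1b was 0.0226 ± 0.0080 (SD, n = 8) with KPT-330 and 0.0166 ± 0.0046 (SD, n = 7) in control. Summed by type, Hspa1b in the Clca3 cluster read 0.0303 (16 UMIs) with KPT-330 and 0.00804 (4 UMIs) in control. Hspa1a read 0.0362 and 0.0226 in early enterocyte-like cells, and 0.0337 and 0.0228 in early Paneth-like cells. Below control were Hspa1b in Paneth-like and enteroendocrine-like cells, and Hspa1a in enteroendocrine-like, stem I-like and stem III-like cells. Sums over a type and condition are small, and a higher level per cell and a larger number of expressing cells cannot be told apart here.

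**Figure D3:**
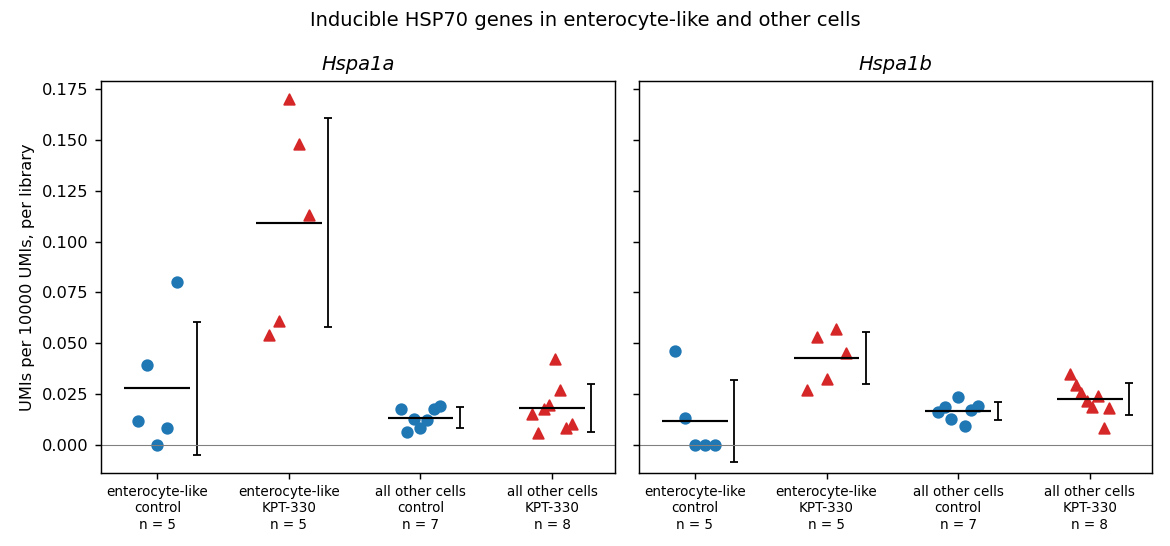
Hspa1a and Hspa1b (UMIs per 10000 UMIs, 1 point per library) in enterocyte-like cells and in all other cells, with the mean (line) and SD (bar) of each condition. Enterocyte-like cells of the KPT-330 libraries reach 0.170 for Hspa1a, while no library of the other cells is above 0.0424.

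Hspa1a passed the filter on low counts in enterocyte-like cells through the KPT-330 libraries alone, so its fit there is a description and supports nothing further. The fitted value was 2.37 higher on the log2 scale with KPT-330 (SE 0.62) and did not pass the threshold in edgeR (adjusted p 0.0640, and 0.000288 to 0.195 over the alternatives), where 0.783% of 8428 genes were called higher and 2.02% in either direction. Hspa1b was under the filter there, and the sum of both differed by 1.85 (adjusted p 0.0962), with the same limit. Hsph1 (0.56, adjusted p 0.222) and Hsp90aa1 (0.46, adjusted p 0.228) had unadjusted p-values under 0.05 as well. In the same cells the immediate early genes had 0 of 21 higher and 2 lower, Fosl1 (-1.43) and Ier3 (-1.24), with a list median of -0.38. Their summed level in enterocyte-like cells was 49.0 to 81.8 per 10000 in the control libraries and 29.4 to 61.2 in the KPT-330 libraries with at least 20 such cells.

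Without the enterocyte-like cells, an alternative added after the data were seen, the whole-organoid values fell to 0.61 for Hspa1a (adjusted p 0.218) and 0.67 for Hspa1b (adjusted p 0.0690), and 0 of the 9 genes were called. In that fit 1701 of all 12310 genes tested were called higher and 1666 lower, and the 0 of 9 is to be read beside those counts. Enterocyte-like cells had a median of 7545 UMIs, the most of any type, and were 0.107% to 25.7% of the cells of KPT-330 libraries and 0.263% to 10.6% of control libraries. Levels are relative to the UMIs of the same cells, and the part of depth in these values was not tested.

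Within the other types none of the tested genes was called either. Hspa1a, Hspa1b and Hspb1 did not pass the filter on low counts there, so nothing is read for them. Over the 8 types that could be fitted, 57 tests of these genes gave 0 calls in either direction, while of all genes 0.375% were called in stem III-like, 4.34% in stem I-like, 1.27% in early enterocyte-like, 2.02% in enterocyte-like, 2.96% in early Paneth-like, 3.36% in Paneth-like and 2.35% in enteroendocrine-like cells and 2.41% in the Clca3 cluster. The nearest was Hsph1 in early Paneth-like cells (-0.59, SE 0.18, adjusted p 0.0848), which was called with no filter on low counts (adjusted p 0.0405) and with a finer clustering (adjusted p 0.0367), in a range of 0.0367 to 0.293 over all alternatives. Hspd1 in stem I-like cells (-0.41, adjusted p 0.143) and Hsp90ab1 in Paneth-like cells (-0.26, adjusted p 0.261) had unadjusted p-values under 0.05. Stem II-like cells had too few comparable days to be fitted alone.

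In stem II-like cells pooled with stem III-like ones over days 0.25 to 2, 7 of the genes were tested and 0 called, beside 1.42% of 9558 genes. Hspa1a, Hspa1b and Hspb1 were under the filter on low counts and were not tested. Hspd1 was nearest, at -0.24 (SE 0.12, adjusted p 0.392), and Hspa8 (0.04), Hsph1 (0.04), Hsp90aa1 (0.03) and Hsp90ab1 (0.02) lay near 0, with approximate 95% intervals between -0.25 and 0.31. Of the immediate early genes 4 of 19 were higher there, led by Dusp1 (1.03), Nr4a1 (1.00) and Atf3 (0.92), and 0 genes of any other chaperone list were called.

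Across cell types of the 9 untreated libraries, the chaperones of the cytosol and mitochondria were mostly high in stem-like cells and low in Paneth-like cells. The clusters come from the same cells, so these values are a description, and the order is given for types with at least 20 cells in a library. Hsp90ab1 was 39.96 ± 4.8 in stem I-like (SD, n = 6), 39.4 ± 5.0 in stem II-like (SD, n = 8) and 37.9 ± 3.3 in stem III-like cells (SD, n = 9), which did not differ beyond their spread. The Clca3 cluster (34.1), enteroendocrine-like (31.1) and early enterocyte-like cells (25.6) followed, then early Paneth-like (16.9 ± 3.7; SD, n = 5) and Paneth-like cells (16.1 ± 3.3; SD, n = 5). These means rest on different libraries, and so on different days: in the 2 libraries with both, early enterocyte-like cells were above early Paneth-like cells in 1, with a mean difference of -2.93, so no order of that pair is read. Enterocyte-like cells were lowest at 12.2 ± 0.7 (SD, n = 5), below Paneth-like cells in 5 of 5 libraries.

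Hspa8 was highest in stem II-like (7.94 ± 1.42; SD, n = 8) and, close to it, stem III-like cells (7.54 ± 1.42; SD, n = 9) and lowest in early Paneth-like (2.77 ± 0.57; SD, n = 5) and Paneth-like cells (2.68 ± 0.52; SD, n = 5). Between these, the step from enterocyte-like (5.02 ± 0.45; SD, n = 5) to early Paneth-like cells was the only one beyond the larger SD of the neighbours, and it was seen in 5 of 5 libraries. Hsph1 was 2.01, 2.00 and 1.98 in the 3 stem-like types, 1.53 in the Clca3 cluster, 0.867 in early enterocyte-like cells and 0.517 ± 0.155 (SD, n = 5) in enterocyte-like cells, its lowest.

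Hspd1 and Hsp90aa1 had their highest means in stem III-like cells, within the larger SD of those of stem II-like cells. Hspd1 was 2.42 ± 0.69 in stem III-like (SD, n = 9) and 2.28 ± 0.67 in stem II-like ones (SD, n = 8), but 1.11 ± 0.061 in stem I-like cells (SD, n = 6), and 0.626 ± 0.069 in Paneth-like cells (SD, n = 5). Hsp90aa1 was 1.16 ± 0.27 in stem III-like cells (SD, n = 9), 0.868 in stem II-like and 0.698 in stem I-like cells, and 0.320 ± 0.066 in early Paneth-like cells (SD, n = 5), which were below Paneth-like cells (0.428) in 5 of 5 libraries.

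The J proteins had another order. Dnaja1 had its highest mean in enterocyte-like cells (0.707 ± 0.131; SD, n = 5), within the larger SD of enteroendocrine-like cells (0.621 ± 0.086; SD, n = 8). Enterocyte-like cells were above enteroendocrine-like cells in 4 of 5 shared libraries. Dnaja1 was lowest in Paneth-like (0.297 ± 0.109; SD, n = 5) and early Paneth-like cells (0.255 ± 0.083; SD, n = 5). Dnajb1 ranged only from 0.425 in stem II-like to 0.684 in enterocyte-like cells, and no pair of neighbours in its order differed beyond the larger SD. Dnajb1 in enterocyte-like cells was above stem III-like cells in 1 of 5 shared libraries, and no highest type is read for it.

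In the 5 untreated libraries with enough of both, stem III-like cells were above Paneth-like cells in 5 of 5 for Hspa8, Hsph1, Hsp90aa1, Hsp90ab1, Dnaja1 and Hspd1, and in 4 of 5 for Dnajb1. The mean log2 ratios were 1.599 for Hspd1, 1.605 for Hsp90aa1, 1.33 for Hspa8, 1.31 for Hsph1, 1.19 for Hsp90ab1, 1.08 for Dnaja1 and 0.23 for Dnajb1. Since 75.2% of 7538 genes were higher in stem III-like cells, with a median of 0.60, the ratios are to be read beside that: 10.2% of genes had a larger ratio than Hsp90aa1, 10.4% than Hspd1, 16.0% than Hspa8, 20.4% than Hsp90ab1 and 67.0% than Dnajb1. Hspa1a and Hspa1b had 5 to 36 UMIs per type over all untreated libraries, with 0 in at least 1 library for every type, and no order of types is read from them. Hspb1 had 0 to 7 UMIs per type.

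**Figure D4:**
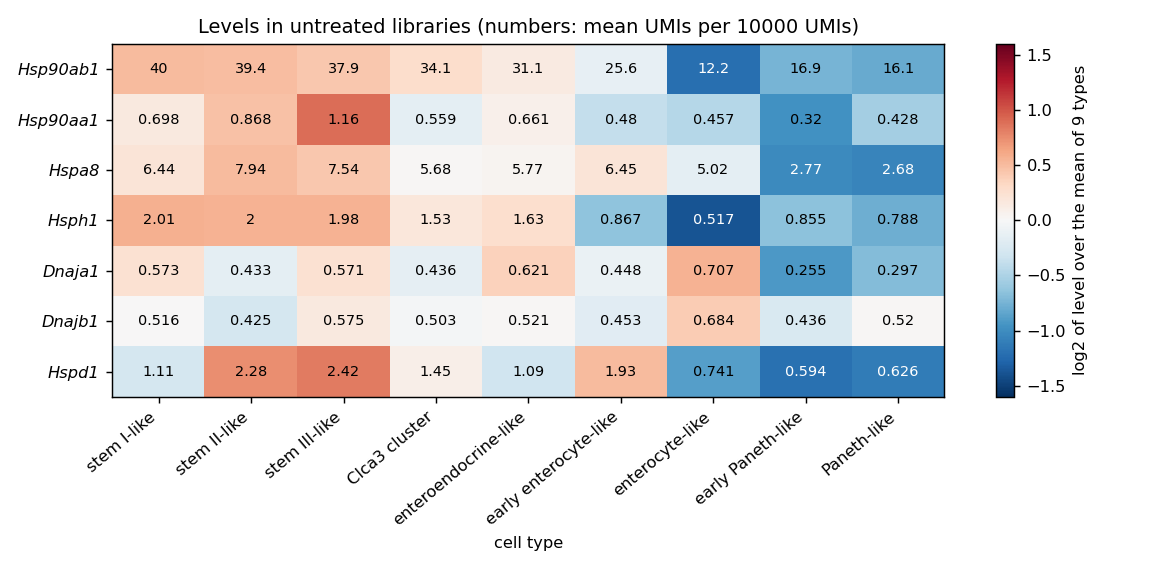
Mean levels of 7 chaperone genes (numbers, UMIs per 10000 UMIs) in 9 cell types of the untreated libraries, coloured by the log2 of the level over the mean of the 9 types for that gene. Hsp90ab1 is 39.96 in stem I-like and 12.2 in enterocyte-like cells, where Dnaja1 has its highest mean, 0.707, within the larger SD of enteroendocrine-like cells.

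The genes whose courses over the 17 libraries were most like those of the chaperones were found by the root-mean-square difference of centred log2 levels among 13458 genes. Nearest to Hsp90ab1 were the TRiC subunit Cct2 (0.1001), Cnot6 (0.123), Nif3l1 (0.124), Isg20l2 (0.128) and the TRiC subunit Cct3 (0.128). Nearest to the summed count of Hspa1a and Hspa1b were Sgk1 (0.328), Sema6a (0.356), Slc6a8 (0.371), Ctsb (0.381) and Rab20 (0.407), and this sum rests on 12 to 76 UMIs per library.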

How the data were processed

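Gene by cell tables of UMI counts were deposited by the authors, who converted reads with bcl2fastq, aligned them to mm10 with STAR in the Drop-seq pipeline and counted unique molecular identifiers per gene and barcode. How reads that fit both Hspa1a and Hspa1b were assigned is not given in the sources used here. The cells used were those named in the header of the authors' table of cells that passed their quality filters, which covered doublets, more than 500 genes, fewer than 30000 UMIs and less than 35% mitochondrial reads, and no further doublet caller was run: 19877 of 26229 barcodes were kept. Of the kept barcodes 14 occurred in more than 1 library.

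Counts were summed over the cells of each library, with TMM factors and the filterByExpr filter, and tested by the quasi-likelihood F-test of edgeR (4.0.16) with a term for day, p-values adjusted by Benjamini-Hochberg across the genes that passed the filter and a threshold of 0.05. Cells were clustered in Seurat (5.3.0) with sctransform (0.4.2) after the genes of the chaperone and immediate early lists were removed. The edgeR step was tested on simulated data, where it recovered 97% of genes changed by 1 on the log2 scale in the KPT-330 comparison of 11905 genes, and 45% in the day 6 comparison of 11906. The simulation left out genes with few counts and gave all others the same spread, without an effect of day. These shares are over genes of all levels and do not describe genes as low as Hspa1a and Hspa1b. DESeq2 (1.42.0), other size factors, no filter on low counts, a replicate block and single libraries or days left out were the alternatives.

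The 10 genes and all other lists were chosen with earlier results of these data known. The 10 genes are always named, and of each other list at most 3 genes per direction with the largest change among those past 0.05. Nearest genes are the 5 with the smallest root-mean-square difference in log2 counts scaled to library size (TMM, prior count 2). The 95% intervals come from the SE of the fit by the normal distribution and hold the spread between libraries, while floors of 3 UMIs cover counting error only. They are approximate and narrower than the F-test would give, so an interval may exclude 0 where the unadjusted p is above 0.05.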

Additional observations from a re-analysis of the deposited data

Results flagged for a closer look

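Among the KPT-330 libraries, Hspd1 in day 0.25 replicate 1, at 2.56 UMIs per 10000 UMIs, stood apart from the other 7, with a gap to its nearest neighbour of 0.529 of the whole range. The KPT-330 libraries differ in day, and the control library of the same day read 3.26. In all, 20 groups of libraries were examined in this way, and chance marks about 1 in 20.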

How the results depend on the processing

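KPT-330 against control over all cells called 3661 genes, and 2092 to 3969 with a library or day left out. Without enterocyte-like cells 1701 of 12310 genes were called higher and 1666 lower. Without early enterocyte-like and enterocyte-like cells 1595 of 12073 genes were called higher and 1583 lower. Of the chaperone genes 2 were higher: 1 with Hspa1a and Hspa1b summed (1 gene in their place), 0 without enterocyte-like cells, 0 without early enterocyte-like and enterocyte-like cells, and 1 to 2 with a library or day left out. None was lower: 1 in DESeq2 (Hsp90ab1, -0.20, adjusted p 0.0373), 1 with no filter (Hsph1, -0.26, adjusted p 0.0499), 4 with library totals, and 0 to 1 with a library or day left out (Hsph1 without day 3 KPT-330 replicate 1, -0.31, adjusted p 0.0225). With the replicate number as a block 1 was lower (Hsph1, -0.28, adjusted p 0.0410). The numbers are shared by 2 pairs at day 6, whose deviations correlated across genes at r = 0.376, too few pairs to say that they pair the libraries. Within cell types the block gave 1 chaperone gene higher (Hspa1a in enterocyte-like cells, 2.74, adjusted p 0.00989) and 2 lower (Hsph1 in Paneth-like, -0.39, adjusted p 0.0489, and in early Paneth-like cells, adjusted p 0.0487). The block called 180 to 778 of all genes per type, beside 32 to 396 in the main fits. The fit of Hspa1a in enterocyte-like cells is a description here too, with the limit given above. Within cell types, no filter gave 1 higher and 1 lower, and the finer clustering 1 lower.

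In early stem-like cells 136 genes were called, against 17 in DESeq2, 269 with no filter, 67 in cells with at least 1000 genes and 22 to 223 with a day left out, and the interaction had 0, against 56, 349 with no filter, 1 with library totals and 0 to 164. Day 6 against day 0 gave 3398 to 5619 genes and 1 to 5 lower chaperone genes with a library left out. The trend gave 2138 genes, 3238 in DESeq2 and 317 to 2429 with a library left out, with 0 to 3 lower chaperone genes. A block was not possible in the early stem-like cells, where number and day coincide, and no paired analysis was made of the day 6 contrast or the trend.

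Signs turned for uncalled genes. Over all cells Dnaja1 (0.02) was -0.0028 with no filter, -0.0078 with the block, -0.10 and -0.13 without the enterocyte-like sets, -0.25 with library totals, -0.24 as a mean over days and -0.072 to 0.067 with a library or day left out. Hspa8 (0.10) was -0.037 and -0.046 without those sets, -0.17 with library totals and -0.15 as a mean over days, Dnajb1 (0.14) was -0.13 and -0.11, and Hsp90aa1 (0.20) was -0.069 and -0.049, in the same order. In early stem-like cells library totals gave Hsp90aa1 -0.0024 and Hsp90ab1 -0.0065, and leaving out a day gave Hsp90ab1 -0.0065 to 0.078, Hspa8 -0.049 to 0.12 and Hsph1 -0.055 to 0.14. In the interaction library totals gave Dnajb1 -0.10, Hsp90aa1 -0.16, Hspa1b -0.14, Hspa8 -0.14 and Hspd1 -0.20, and leaving out a library or day gave Hspa1b -0.18 to 0.35 and Hspd1 -0.027 to 0.22. With a library left out, Hspa1a at day 6 against day 0 ranged from -0.61 to 0.11 and the trend of Hsp90aa1 from -0.091 to 0.023. The cause of these differences was not tested. Of the other values for single genes, 627 kept their sign and side of the threshold, 45 fell below it and 15 passed it.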

Other observations

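The barcodes that the authors' filters removed, 6352 in all, were also counted for Hspa1a and Hspa1b. Hspa1a stood at 0.0186 UMIs per 10000 in them and at 0.0244 in the kept cells, and Hspa1b at 0.0254 and 0.0235, and each was higher in the removed barcodes in 8 of 17 libraries.

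Within enterocyte-like cells, 1 endoplasmic reticulum chaperone was called with KPT-330, the disulfide isomerase Pdia6, at 0.68 on the log2 scale (SE 0.15, adjusted p 0.0268, edgeR).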
